A study of Mus musculus with 9 samples.

Results

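The nuclear genes of the respiratory chain and the ATP synthase are the subject here. They were chosen by symbol alone, as the genes whose names begin with Ndufa, Ndufb, Ndufc, Ndufs or Ndufv and a digit, the genes Sdha to Sdhd, and those beginning with Uqcr, with Cox4 to Cox8 and a letter, or with Atp5. This rule found 86 of the 24594 genes counted, which are 37 of complex I, 4 of complex II, 8 of complex III, 20 of complex IV and 17 of the ATP synthase (complex V). Ndufa4 and its relative Ndufa4l2, once assigned to complex I, were placed with complex IV. Of the 86, 80 had enough counts to be tested, and Cox6b2, Cox7b2, Cox8b, Cox8c, Ndufa4l2 and Ndufs5 did not. The subunits encoded in mitochondrial DNA were not analysed here, and the nuclear subunit genes Cyc1 and Ndufab1, whose symbols fall outside the rule, are given with the related genes.

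RNA was sequenced from BG2, a cell line grown from a mammary tumour of an MMTV-Neu-IRES-Cre mouse, in which the mammary promoter MMTV drives the oncogene Neu together with Cre. The control is the wild-type bulk population, whose library names hold NTC. The other groups, clone 1 and clone 2, are single Sox10 knockout clones grown out of a CRISPR-edited pool with guides against exon 3 of Sox10, so each stands for 1 clone. Each group has 3 libraries that the labels call technical replicates, and every p-value below speaks only of the spread among these 9 libraries.

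The respiratory chain sits in the inner mitochondrial membrane. Complex I takes electrons from NADH and complex II from succinate, both hand them to ubiquinone, complex III passes them on to cytochrome c, and complex IV gives them to oxygen. Complexes I, III and IV pump protons, and the ATP synthase uses the returning protons to make ATP. In the synthase, a ring of c subunits in the membrane turns a shaft inside the catalytic head, F1, which a peripheral stalk holds still. Some complex IV subunits come in isoforms, with one gene used in most tissues and another in muscle, lung or testis.

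The libraries held 65805296 to 83282841 counts. Sox10 was at 284 ± 40.9 CPM (counts relative to the library total, with TMM scaling between libraries; mean ± SD, n = 3) in control libraries, 0.0262 ± 0.0455 in those of clone 1 and 0.0173 ± 0.0150 in those of clone 2. Of the mammary epithelial markers, Epcam had a mean of 659.5 CPM in control libraries, 0.0341 in clone 1 and 0 counts in clone 2, and Krt8 went from 2393 to 666 and 787 CPM. Of the 6 such markers, 4 were lower and 2 higher in clone 1, and 4 lower and 1 higher in clone 2. Krt14, a basal keratin, rose from 3.02, 3.72 and 4.67 CPM in the control libraries to means of 10.1 and 135 CPM. Krt5, its partner, had low counts (means of 0.105, 0.396 and 0.150 CPM) and passed in clone 1 and not in clone 2. The fibroblast markers Lum and Thy1, the T cell marker Cd3e and the brown fat marker Ucp1 had 0 counts in all 9 libraries. The 8 fibroblast markers together lay at 30.3 to 35.9 CPM over the control libraries, 217 to 223 over those of clone 1 and 136 to 150.1 over those of clone 2. Pdgfra, at 7.83, 172 and 107 CPM, was most of that in the clones but not in the control. The 4 endothelial markers together lay at 0 to 0.108 CPM over the control libraries, 15.3 to 17.3 over those of clone 1 and 0.504 to 0.953 over those of clone 2, nearly all of it Kdr. The 6 immune markers lay at 7.24 to 12.4, 9.34 to 11.05 and 37.9 to 39.8 CPM in the same order, with the macrophage marker Cd68 at means of 10.1, 9.80 and 38.6 CPM. The part of these markers in the results was not tested.

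Certain members share sequence with other genes, which sets how far their counts can be read. Against GENCODE transcripts, 11 of 84 members searched had a copy elsewhere in the genome with at least 99% identity over at least 100 bases. For 2 of them the copy is itself a member. Ndufs5 is an accessory subunit of complex I on chromosome 4 (gene at chr4:123712710-123718202, minus strand, GRCm38). Ndufs5-ps is an intronless pseudogene copy (chr16:42955631-42955949, plus strand) that differs at 2 of the 319 coding bases compared, T81C and A105G, counted from 1 at the first base of the Ndufs5 start codon. A stretch of 120 bases that holds both is shown from position 33 to 152, with the differing bases in capitals.
Ndufs5: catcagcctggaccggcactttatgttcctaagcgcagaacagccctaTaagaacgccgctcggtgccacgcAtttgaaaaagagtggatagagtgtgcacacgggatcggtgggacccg
Ndufs5-ps: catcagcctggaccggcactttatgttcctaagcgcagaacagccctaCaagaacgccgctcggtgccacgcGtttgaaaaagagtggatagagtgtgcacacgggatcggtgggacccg
Ndufs5 itself had only 6, 10 and 19 counts in all 3 libraries of the control, clone 1 and clone 2, whereas Ndufs5-ps was counted at 37.6, 40.3 and 44.3 CPM in the control libraries, 39.4, 35.7 and 39.3 in the clone 1 libraries and 40.5, 42.4 and 38.4 in the clone 2 libraries. The groups overlapped, and Ndufs5-ps did not pass the test in any comparison; summed with Ndufs5, its log2 fold change was -0.09 ± 0.07 (SE) in clone 1 and -0.01 ± 0.07 in clone 2 against the control. Within the 319 bases compared, a read that covers neither position is the same for both genes, so the counts are best read as those of the pair. Bases outside that stretch were not compared.

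Ndufb4, another accessory subunit of complex I (gene at chr16:37647170-37654453, minus strand), has a copy, Ndufb4c (chr15:73809507-73809896, minus strand), that GENCODE lists as a processed pseudogene. All 390 coding bases of Ndufb4 are the same in Ndufb4c. Positions 16 to 135 stand for both, with no capitals because no base differs.
Ndufb4 and Ndufb4c: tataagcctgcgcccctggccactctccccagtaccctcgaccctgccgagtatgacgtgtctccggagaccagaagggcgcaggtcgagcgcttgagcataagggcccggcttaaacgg
Summed, the pair was at 48.5, 55.0 and 59.9 CPM in the control, 69.2, 70.5 and 70.7 CPM in clone 1 and 103, 109 and 94.3 CPM in clone 2. No library of one group overlapped another, and the pair rose by 0.36 ± 0.08 on the log2 scale in clone 1 (adjusted p = 0.00111, edgeR quasi-likelihood test) and 0.90 ± 0.08 in clone 2 (adjusted p = 7.55e-07), with 0.54 ± 0.08 between the clones (adjusted p = 0.000116). Counted apart, Ndufb4c took most of the counts of the pair, with 36.4, 40.8 and 43.3 CPM in the control libraries, 51.5, 52.9 and 53.7 in the clone 1 libraries and 79.8, 82.0 and 72.5 in the clone 2 libraries. Ndufb4 had 12.1, 14.1 and 16.5 CPM in the control libraries, 17.7, 17.5 and 17.0 in the clone 1 libraries and 22.9, 26.7 and 21.8 in the clone 2 libraries. Both rose in both clones, and the call of Ndufb4 in clone 1 (log2 fold change 0.29) was lost without control replicate 1 (0.18) or 2, or without any 1 of the clone 1 replicates.

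Taken as a sum, the 86 genes made up a larger part of the counts in both clones than in the control. They took 1.02, 1.09 and 1.10% of all counts in the control libraries, 1.16, 1.21 and 1.22% in the clone 1 libraries and 1.37, 1.43 and 1.36% in the clone 2 libraries. The 3 groups did not overlap, and control replicate 1 was the lowest library. The summed CPM was 1.13-fold the control in clone 1, 1.29-fold in clone 2, and 1.15-fold higher in clone 2 than in clone 1. An exact 2-sided permutation test gave p = 0.10 for each, the smallest that 3 libraries against 3 allow. A sum weighs abundant genes most, and complex V took much of this rise. Its summed CPM had means of 4413 in the control, 5681 in clone 1 and 6490 in clone 2, beside 10690, 12070 and 13840 for all 86 genes. Its F1 genes Atp5b, Atp5c1 and Atp5a1, all higher in both clones, were among the 4 most abundant members per length there. In bulk RNA, a change in every cell and a change in the share of cells that hold a transcript cannot be told apart.

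The ATP synthase had the largest share and the largest ratio to the control. Its 17 genes went from 0.443 ± 0.0169% of all counts in the control (mean ± SD, n = 3) to 0.564 ± 0.0187% in clone 1 and 0.650 ± 0.0161% in clone 2, which is 1.29-fold and 1.47-fold in summed CPM. Complex IV had the next largest ratio, 1.10-fold and 1.19-fold, with 0.189 ± 0.00626%, 0.207 ± 0.00244% and 0.226 ± 0.00439%. Complex I, with 0.281 ± 0.0134% in the control, overlapped it in clone 1 (0.279 ± 0.00627%) and lay above it in clone 2 (0.326 ± 0.0111%). Complexes II and III overlapped the control in clone 1, at 0.952-fold and 0.943-fold in summed CPM, and lay above it in clone 2, at 1.18-fold and 1.15-fold. In all 5 complexes the 3 libraries of clone 2 were above the 3 of clone 1.

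**Figure D1:**
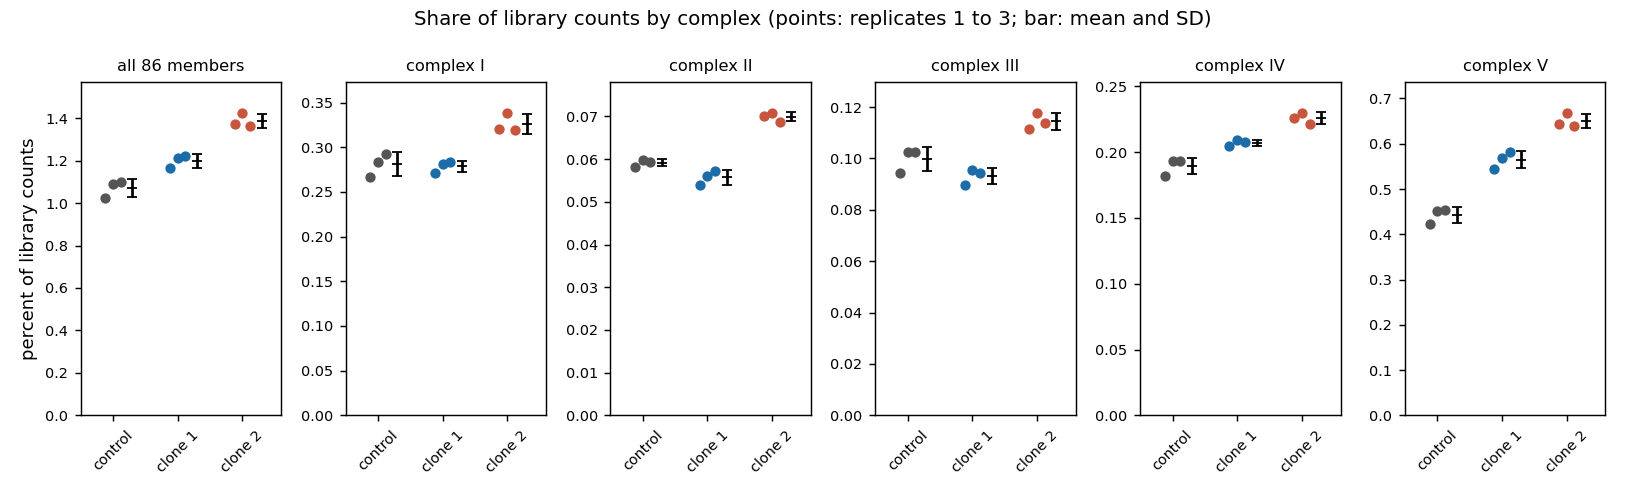
Percent of all counts of a library (vertical axis, from 0) taken by all 86 members and by each complex; points are the 3 libraries of each group, and the bar beside them is the mean with its SD. Clone 2 is the highest group in every panel, and clone 1 lies above the control for all members, complex IV and complex V only.

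Gene by gene, members were called about as often as other genes, and a smaller share passed a larger fold, except for higher members in clone 2. Against the control, 40 members were higher and 22 lower in clone 1, or 77.5% of the 80 tested; 76.5% of all 13928 genes tested were called there (37.9% higher and 38.6% lower). In clone 2, 49 were higher and 12 lower, or 76.2%, beside 74.4% of all genes (37.3% higher, 37.1% lower). The calls are adjusted p under 0.05 in the edgeR quasi-likelihood test. A change beyond 1.5-fold was tested separately (glmTreat in edgeR). It was passed by 7 higher and 4 lower members in clone 1, or 13.8% beside 40.0% of all genes (19.8% higher and 20.2% lower). In clone 2, 19 higher and 1 lower member passed it, or 25% beside 37.7% (18.8% higher and 18.9% lower). With DESeq2, 4 members in clone 1 and 11 in clone 2 were higher past it. The share of all genes past it with DESeq2 was not counted, so these counts have no background beside them. Both clones are compared with the same control libraries.

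The median log2 fold change of the tested members was 0.15 in clone 1 and 0.31 in clone 2, beside 0.00 for all genes in both. Without control replicate 1, the library with the lowest member sum, the medians were 0.10 and 0.19. By complex, the medians in clone 1 were 0.12 for complex I, -0.10 for complex II, 0.04 for complex III, 0.11 for complex IV and 0.27 for complex V. In clone 2 they were 0.30, 0.28, 0.20, 0.12 and 0.47 in the same order, and complex I went to 0.19 without control replicate 1. Leaving out single libraries, the clone 1 medians ran from -0.15 to -0.05 for complex II, from -0.03 to 0.08 for complex III and from 0.04 to 0.16 for complex IV. Each was lowest without control replicate 1. These medians are descriptions and carry no test.

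**Figure D2:**
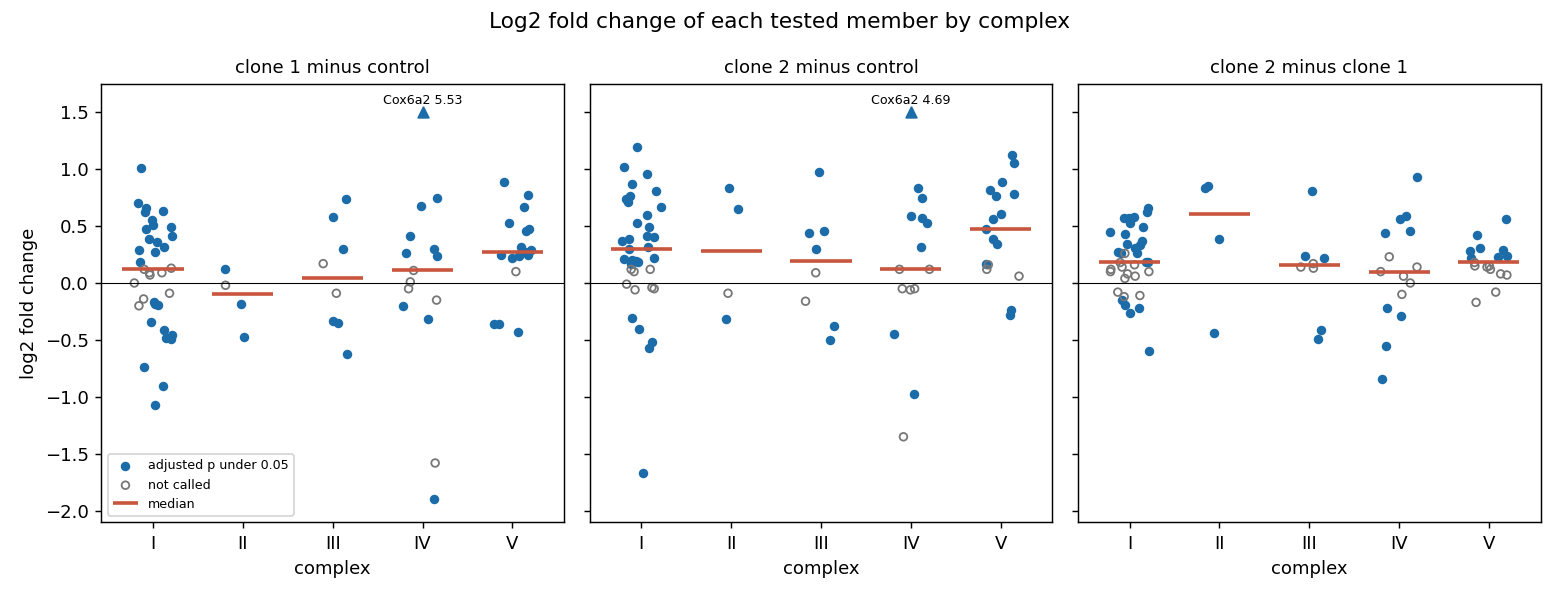
Log2 fold change (vertical axis) of each tested member by complex (horizontal axis) in the 3 comparisons; filled points passed the adjusted p threshold, open points did not, and red bars are medians. Cox6a2 lies beyond the axis and is drawn as a triangle with its value; the bars of complex I leave out the pseudogene Ndufs5-ps, whose point is shown.

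**Figure D3:**
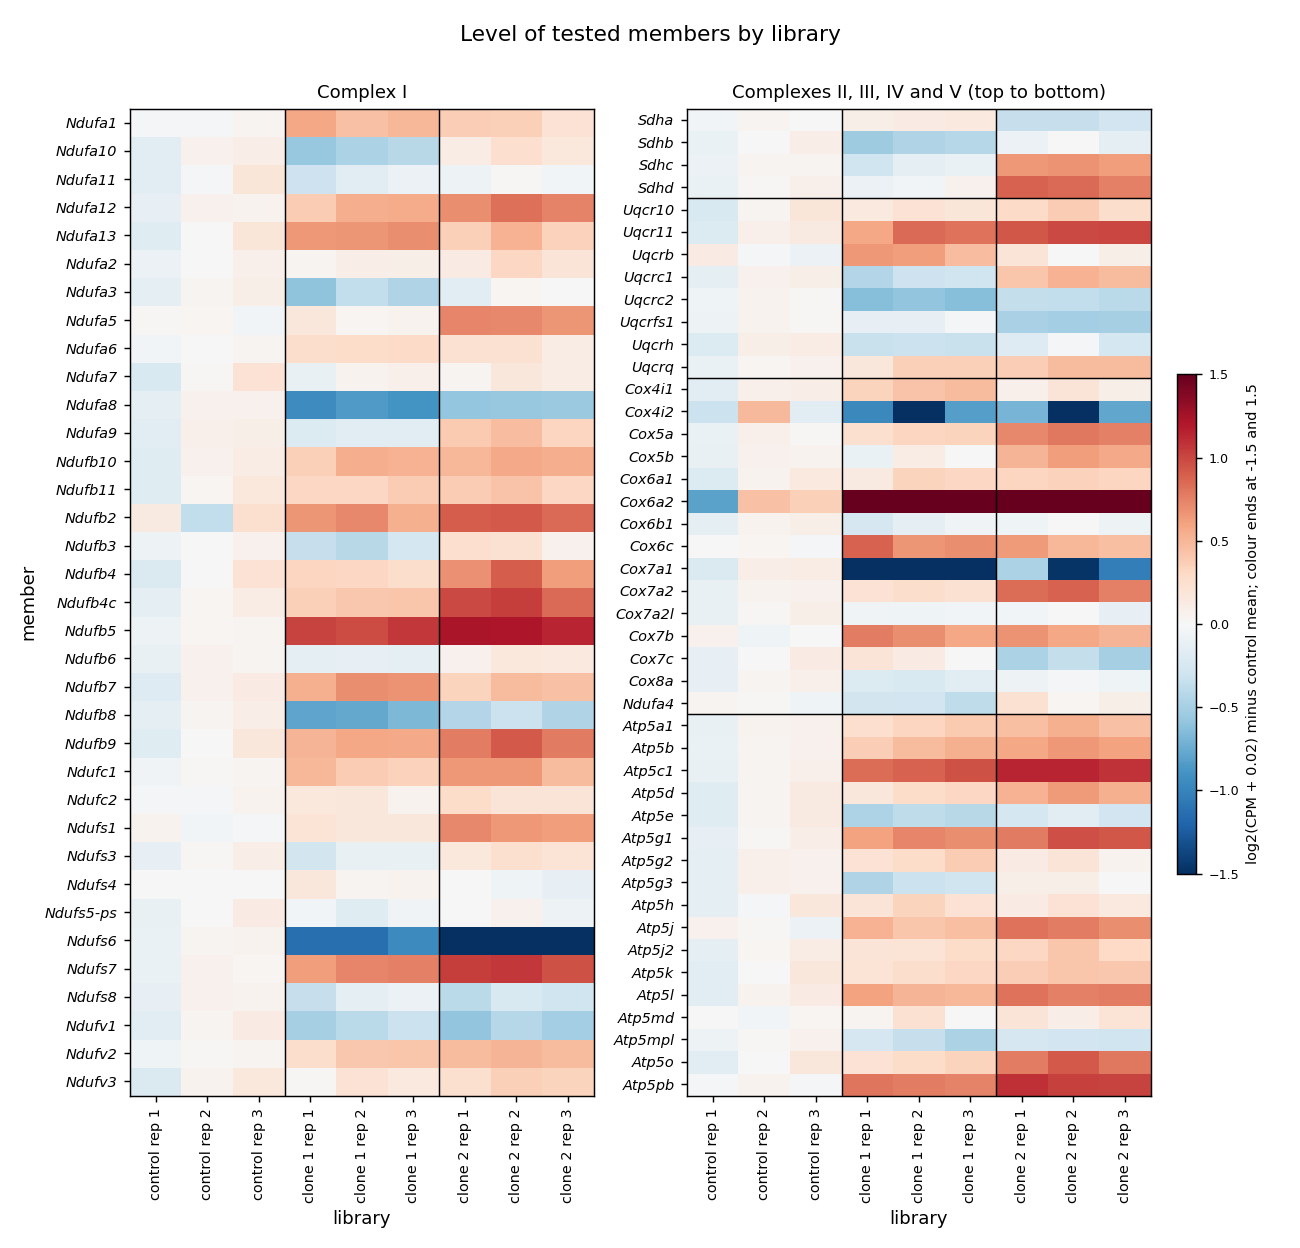
Colour gives the log2 of CPM plus 0.02 in each library (columns) minus the mean of the control libraries, for the tested members reported here (lines of the map, by complex), with colours ending at -1.5 and 1.5. Replicates of a group share their pattern, Atp5c1, Ndufb5 and Atp5pb are red and Ndufs6 and Ndufa8 blue in all 6 clone libraries, and Uqcrc1 and Sdhc are blue in clone 1 and red in clone 2.

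In complex I, the 7 nuclear core subunits, which between them hold the flavin and the iron-sulphur clusters, split. Against the control, 3 were higher and 4 lower in clone 1, and 4 higher and 2 lower in clone 2. All genes tested went both ways too, with 37.9% higher and 38.6% lower in clone 1 and 37.3% and 37.1% in clone 2. These shares stand beside the counts of each group of members below. Ndufs7, the subunit that holds the last cluster before ubiquinone, was counted at 52.3, 58.6 and 57.3 CPM in control replicates 1 to 3, at 86.7, 92.8 and 94.2 in those of clone 1 and at 115, 117 and 109 in those of clone 2. It rose in both clones, by 0.70 ± 0.06 and 1.02 ± 0.06 on the log2 scale (log2 fold change ± SE; adjusted p = 6.16e-07 and 2.55e-08, edgeR). Ndufv1, which binds NADH and the flavin, was at 195, 224 and 237 CPM in the control libraries, 155, 164 and 175 in the clone 1 libraries and 144, 162 and 152 in the clone 2 libraries. It fell in both, with log2 fold changes of -0.41 and -0.52, and its control libraries lay above all others. Ndufs1, the largest core subunit, rose by 0.18 in clone 1 and 0.67 in clone 2.

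Ndufs6, an accessory subunit of the peripheral arm that carries zinc, fell most of the complex I genes. It was counted at 38.0, 41.9 and 42.2 CPM in control replicates 1 to 3, at 18.5, 18.6 and 20.9 in those of clone 1 and at 11.5, 13.2 and 13.6 in those of clone 2. The 3 groups did not overlap and lay in the order control, clone 1, clone 2. The log2 fold change was -1.07 ± 0.08 in clone 1 (adjusted p = 3.31e-07, edgeR), -1.67 ± 0.09 in clone 2 (adjusted p = 8.07e-09) and -0.60 ± 0.08 between the clones (adjusted p = 0.000109). It was the 1 member past 1.5-fold lower in clone 2. Without clone 2 replicate 1 there were 2 such members.

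The 13 accessory genes named Ndufb or Ndufc, whose proteins sit in the membrane arm, were mostly higher. They include the copy Ndufb4c, and both it and Ndufb4, whose counts stand for 1 pair, are among the higher ones below. In clone 1, 9 were higher and 2 lower, and in clone 2, 11 higher and 1 lower; their medians were 0.39 and 0.53. Ndufb5 had 40.0, 43.1 and 43.3 CPM in the control libraries, 85.0, 83 and 87.7 in the clone 1 libraries and 98.7, 97.8 and 92.8 in the clone 2 libraries. All clone libraries lay well above the control, by 1.01 ± 0.05 and 1.19 ± 0.05 on the log2 scale (adjusted p = 9.07e-09 and 2.38e-09, edgeR). Ndufb2 and Ndufb9 also rose, by 0.62 and 0.55 in clone 1 and 0.87 and 0.81 in clone 2. Ndufb8, whose protein is often used as a sign of assembled complex I, went the other way, with 198, 223 and 231 CPM in the control libraries, 125, 127 and 136 in the clone 1 libraries and 160.3, 174 and 159 in the clone 2 libraries. It fell by 0.74 and 0.40 on the log2 scale.

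Of the 12 Ndufa genes, 4 were higher and 4 lower in clone 1 (33.3% each), near the split of all genes (37.9% higher and 38.6% lower). In clone 2, 8 were higher and 1 lower (66.7% and 8.33%, beside 37.3% and 37.1% of all genes). Ndufa8, an accessory subunit with disulphide-bonded helices, was at 111, 128 and 128 CPM in control replicates 1 to 3, at 63.3, 67.7 and 65.8 in those of clone 1 and at 81.6, 82.3 and 82.8 in those of clone 2. Every clone library was below every control library, and the log2 fold changes were -0.90 ± 0.06 and -0.57 ± 0.06 (adjusted p = 8.21e-08 and 4.03e-06, edgeR). The level in clone 2 was above that in clone 1, by 0.33 ± 0.06 (adjusted p = 0.000722, edgeR). Ndufa10 had 150.2, 177 and 181 CPM in the control libraries, 114, 121 and 126 in the clone 1 libraries and 183, 202 and 188 in the clone 2 libraries; it fell by 0.49 in clone 1 and was 0.66 ± 0.07 higher in clone 2 than in clone 1 (adjusted p = 1.64e-05, edgeR). Its rise of 0.17 in clone 2 against the control was lost under 11 alternatives, among them DESeq2 (0.15), a minimum count of 100 (0.16) and leaving out control replicate 1 (0.07). Ndufa5, a small subunit of the peripheral arm, had 33.9, 34.1 and 32.7 CPM in the control libraries, 37.7, 34.4 and 34.8 in the clone 1 libraries and 55.8, 55.3 and 53.3 in the clone 2 libraries. It did not pass in clone 1 (0.09) and rose by 0.71 in clone 2.

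Complex II, the one complex made of nuclear subunits only, had the largest median difference between the clones, 0.61 on the log2 scale. Its membrane anchors Sdhc and Sdhd, which hold the haem and the ubiquinone site, were at or below the control in clone 1 and high in clone 2. Sdhd was counted at 104, 113 and 117 CPM in control replicates 1 to 3, at 105, 108 and 116 in those of clone 1 and at 205, 199.9 and 187 in those of clone 2. Clone 1 overlapped the control, and the 3 libraries of clone 2 were above all others, by 0.85 ± 0.06 over clone 1 (adjusted p = 6.10e-07, edgeR). Sdhc was at 126, 138 and 138 CPM in the control libraries, 109, 122 and 125 in the clone 1 libraries and 209, 214 and 207 in the clone 2 libraries. Its log2 fold change was -0.18 in clone 1, 0.65 in clone 2 and, for clone 2 against clone 1, 0.83 ± 0.06 (adjusted p = 6.77e-07, edgeR). The fall in clone 1 was lost without control replicate 2, control replicate 3 or clone 1 replicate 1, with values from -0.17 to -0.12.

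The catalytic subunits moved otherwise. Sdha, the flavoprotein that oxidises succinate, was at 227, 241 and 233 CPM in the control libraries, 248, 254 and 258 in the clone 1 libraries and 184, 184 and 191 in the clone 2 libraries. It had a log2 difference of -0.44 ± 0.04 between clone 2 and clone 1 (adjusted p = 6.28e-06, edgeR) and fell by 0.32 against the control there. Its rise of 0.12 in clone 1 was lost under several settings, such as without control replicate 1 (0.09). Sdhb, the iron-sulphur subunit, was at 103, 109.6 and 118 CPM in the control libraries, 76.0, 80.6 and 81.6 in the clone 1 libraries and 103, 109 and 99.01 in the clone 2 libraries. It fell in clone 1 (-0.47) and was -0.09 in clone 2, which did not pass.

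In complex III, the core proteins and the Rieske protein did not share a direction. Uqcrc1, a core protein, was counted at 257, 296 and 301 CPM in control replicates 1 to 3, at 209.9, 229.7 and 232 in those of clone 1 and at 378, 408 and 394 in those of clone 2. Clone 1 lay wholly below the control and clone 2 wholly above it, with log2 fold changes of -0.35 ± 0.07 (adjusted p = 0.000546, edgeR), 0.46 ± 0.07 (adjusted p = 6.15e-05) and, between the clones, 0.81 ± 0.07 (adjusted p = 1.64e-06). Its partner Uqcrc2 had 152, 166 and 161 CPM in the control libraries, 103, 106 and 103 in the clone 1 libraries and 125, 123 and 120.2 in the clone 2 libraries. It fell in both clones, by 0.62 and 0.38 on the log2 scale. Uqcrfs1, the Rieske iron-sulphur protein, was at 117, 128 and 125 CPM in the control libraries, 113, 113 and 121 in the clone 1 libraries and 87.5, 86.2 and 87.4 in the clone 2 libraries. It did not pass in clone 1 (-0.09) and fell by 0.50 in clone 2. Of the 5 small subunits, Uqcr11 rose most, with 49.4, 59.7 and 62.2 CPM in the control libraries, 85.3, 102 and 99.6 in the clone 1 libraries and 108, 113 and 114 in the clone 2 libraries. Its log2 fold changes were 0.74 ± 0.09 and 0.97 ± 0.09. Uqcrb, which binds ubiquinone, had 25.8, 23.1 and 22.2 CPM in the control libraries, 37.3, 36.6 and 32.6 in the clone 1 libraries and 27.2, 23.6 and 25.1 in the clone 2 libraries. Only clone 1 lay apart: it was 0.58 above the control, while clone 2 did not pass (0.09). Uqcr10, Uqcrh and Uqcrq, the other small subunits, had log2 fold changes of 0.17, -0.33 and 0.30 in clone 1, of which the last 2 passed, and 0.30, -0.16 and 0.44 in clone 2, of which the first and last passed.

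Among the 11 complex IV genes that most tissues use, Ndufa4 included, 6 were higher and 2 lower in clone 1, and 6 higher and 1 lower in clone 2. Cox6c rose most in clone 1, with 84.3, 85.3 and 81.8 CPM in the control libraries, 154, 132 and 136 in the clone 1 libraries and 131, 119 and 114 in the clone 2 libraries. Its log2 fold changes were 0.75 ± 0.07 and 0.53 ± 0.07. Cox7a2 and Cox5a rose more in clone 2, with log2 fold changes of 0.83 and 0.75 there against 0.24 and 0.30 in clone 1. The direct differences between the clones were 0.59 ± 0.06 and 0.46 ± 0.05 (adjusted p = 5.26e-06 and 2.54e-05, edgeR). Cox7a2 itself, the form of subunit 7a used in most tissues, was at 95.7, 107 and 108 CPM in the control libraries, 120.5, 124 and 122 in the clone 1 libraries and 185, 191 and 174 in the clone 2 libraries. Cox7c was low in clone 2, with 32.4, 35.4 and 38.4 CPM in the control libraries, 40.4, 38.5 and 35.4 in the clone 1 libraries and 25.5, 27.5 and 24.9 in the clone 2 libraries. Those of clone 2 lay below all others.

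Cox4i1, the common form of subunit 4, was counted at 239, 283 and 289 CPM in the control libraries, 339, 363 and 376 in the clone 1 libraries and 285, 309 and 286 in the clone 2 libraries; it rose in clone 1 (0.41) and did not pass in clone 2 (0.12). Cox6a1 had 183, 217 and 232 CPM in the control libraries, 231, 265 and 259.7 in the clone 1 libraries and 262, 267 and 262 in the clone 2 libraries, and Cox7b had 89.4, 81.4 and 85.2 CPM in the control libraries, 145, 138 and 128 in the clone 1 libraries and 136, 127 and 121 in the clone 2 libraries. Both rose in both clones, Cox6a1 by 0.26 and 0.32 and Cox7b by 0.68 and 0.59. Clone 1 replicate 1 of Cox6a1 overlapped the control, and its clone 1 call was lost without clone 1 replicate 2 (0.22). Cox8a had 289, 325 and 333 CPM in the control libraries, 273, 269 and 282 in the clone 1 libraries and 298, 309 and 301 in the clone 2 libraries; it fell in clone 1 (-0.20) and did not pass in clone 2 (-0.06). Ndufa4, a subunit at the edge of complex IV, had 179, 177 and 167 CPM in the control libraries, 144, 143 and 133 in the clone 1 libraries and 205, 179 and 185 in the clone 2 libraries. Its clone 1 libraries lay below all others, and it fell there by 0.32 and did not pass in clone 2 (0.12). Cox6b1, which faces cytochrome c, and Cox7a2l, which helps complexes III and IV join into supercomplexes, did not pass in any comparison. Under some alternatives they did. In clone 1, Cox6b1 (-0.15) gained a lower call under 5, among them without control replicate 1 (-0.22). In clone 2, Cox7a2l (-0.05) gained a lower call under 1, without control replicate 1 (-0.13). Cox6b1 lay at 188, 216 and 219.5 CPM in the control libraries, 174, 188 and 199 in the clone 1 libraries and 198, 207 and 197 in the clone 2 libraries, and Cox7a2l at 149.7, 164 and 172 CPM in the control libraries, 155, 155 and 157 in the clone 1 libraries and 157, 162 and 148 in the clone 2 libraries.

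The tissue isoforms of complex IV stayed minor in every group. Cox6a2, the heart and skeletal muscle form of subunit 6a, had 0, 2 and 2 counts in the control libraries, 55, 80 and 57 in the clone 1 libraries and 42, 35 and 42 in the clone 2 libraries. The groups did not overlap. The fold over the control was 50.8 in clone 1 (95% counting interval 19.5 to 188) and 28.1 in clone 2 (10.7 to 105), and the edgeR adjusted p was 5.68e-07 and 4.11e-06. Even so, Cox6a2 made up 0.299 ± 0.0343% of Cox6a1 and Cox6a2 together in clone 1 and 0.160 ± 0.0131% in clone 2, counted per transcript length. Clone 2 was at 0.554-fold clone 1 (0.437 to 0.700), and its log2 difference of -0.84 ± 0.28 (adjusted p = 0.0218, edgeR) was lost without clone 1 replicate 2 or clone 2 replicate 1 or 2. Of all values from 1 to 20 in the file, 71.9% were even numbers, and the intervals assume independent single counts.

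Of 8 muscle markers, 4 could be tested. In clone 1, Myh1 and Myh4 were higher and Mb and Acta1 were lower; in clone 2, Myh1 and Myh4 were higher and 0 lower. Myh1 had 0.383 ± 0.0717 CPM in control libraries, 19.4 ± 1.00 in those of clone 1 and 2.76 ± 0.463 in those of clone 2, and Mb had 1.95, 0.544 and 1.84 CPM. Actn2 had 0 counts in every library and Ckm at most 4 in a group. The 8 together lay at 2.54 to 3.39 CPM over the control libraries, 19.4 to 21.4 over those of clone 1 and 4.75 to 6.12 over those of clone 2. Their part in the Cox6a2 result was not tested.

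Cox7a1, the muscle form of subunit 7a, went the opposite way from Cox6a2. It was at 0.693, 0.865 and 0.877 CPM in control replicates 1 to 3, at 0.258, 0.236 and 0.158 in those of clone 1 and at 0.576, 0.278 and 0.383 in those of clone 2. All clone libraries lay below the control, with log2 fold changes of -1.90 ± 0.33 (adjusted p = 0.000292, edgeR) and -0.97 ± 0.30 (adjusted p = 0.0127). Per length, Cox7a1 was 1.30 ± 0.0828% of Cox7a1 and Cox7a2 in the control, 0.298 ± 0.0726% in clone 1 and 0.377 ± 0.138% in clone 2. Cox4i2, the lung form of subunit 4, was at 0.130, 0.243 and 0.148 CPM in the control libraries, 0.0758, 0.0131 and 0.0860 in the clone 1 libraries and 0.0960, 0.0132 and 0.0894 in the clone 2 libraries and did not pass. Summed over the 3 libraries of the control, clone 1 and clone 2, Cox7b2 had 4, 10 and 0 counts and Ndufa4l2, a gene known for its rise in hypoxia, had 9, 3 and 22. Cox8b had 2 counts in control replicate 2 and 0 elsewhere, and Cox6b2 and Cox8c had 0 in every library.

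**Figure D4:**
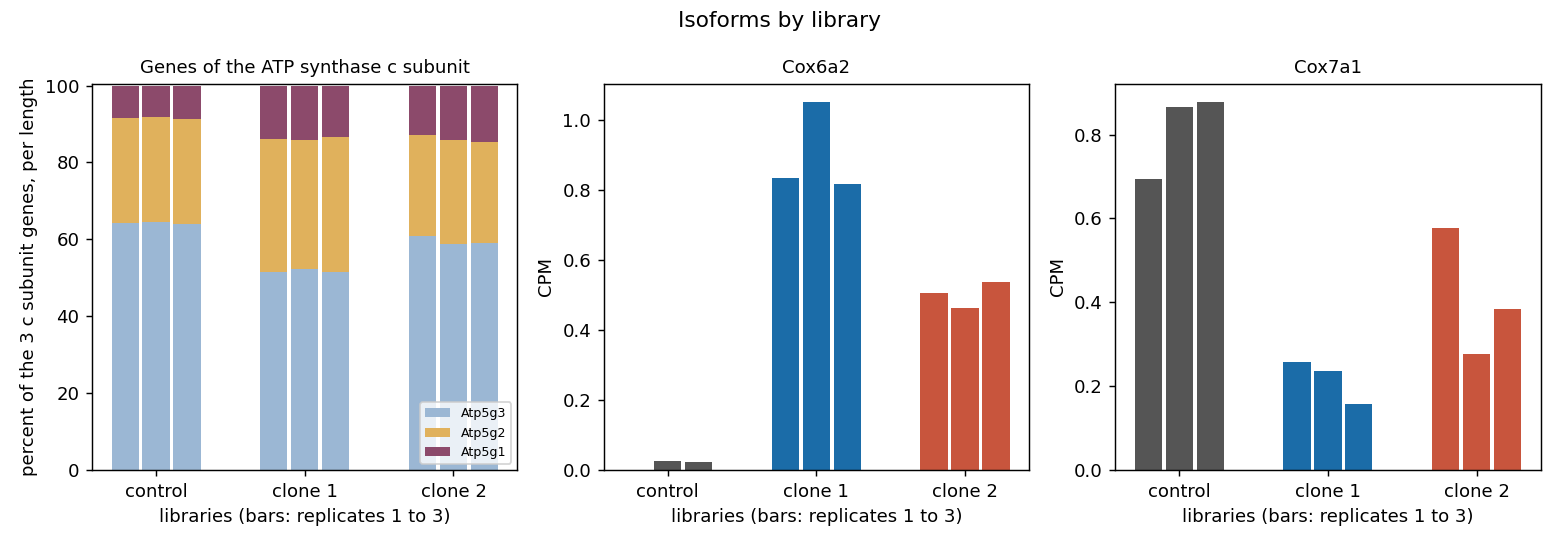
Left, the percent that each c subunit gene gives to the sum of the 3, per transcript length; middle and right, CPM of Cox6a2 and Cox7a1; each bar is 1 library, in groups of 3. Atp5g1 takes more and Atp5g3 less in both clones than in the control, Cox6a2 is near 0 in the control, and Cox7a1 is highest there.

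Most genes of the ATP synthase were higher in the clones. In clone 1, 13 of its 17 genes were higher and 3 lower, and in clone 2, 12 were higher and 2 lower. Atp5b, the catalytic beta subunit and the most abundant member per length in all 3 groups, was counted at 1323, 1466 and 1482 CPM in control replicates 1 to 3, at 1835, 1982 and 2059.9 in those of clone 1 and at 2126, 2229.9 and 2153 in those of clone 2. It rose by 0.46 ± 0.06 and 0.61 ± 0.06 on the log2 scale (adjusted p = 4.45e-05 and 4.51e-06, edgeR). The alpha subunit Atp5a1 rose by 0.32 and 0.47. Atp5c1, the gamma subunit that forms the rotating shaft, had 297, 329.5 and 338 CPM in the control libraries, 576, 591 and 624 in the clone 1 libraries and 707, 711 and 681 in the clone 2 libraries. The groups were far apart, and its log2 fold changes of 0.89 ± 0.06 and 1.12 ± 0.06 (adjusted p = 6.14e-08 and 8.88e-09, edgeR) were the largest of the complex. Atp5e, the epsilon subunit, went the other way, with 134, 156 and 167 CPM in the control libraries, 110.3, 116 and 113 in the clone 1 libraries and 126, 135 and 124 in the clone 2 libraries. It fell in both clones, by 0.43 and 0.24.

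All 4 peripheral stalk genes were higher in clone 1 and 3 of 4 in clone 2. Atp5pb, the b subunit, was at 155, 164 and 156 CPM in the control libraries, 276, 269.8 and 265 in the clone 1 libraries and 339, 323 and 319.9 in the clone 2 libraries. It rose by 0.77 ± 0.04 and 1.05 ± 0.05. Atp5o, the subunit that joins the stalk to the head, had 68.8, 77.9 and 86.9 CPM in the control libraries, 90, 93.7 and 97.6 in the clone 1 libraries and 132, 147 and 135 in the clone 2 libraries. It rose by 0.27 and 0.82 and was 0.56 ± 0.08 higher in clone 2 than in clone 1. Atp5j rose by 0.47 and 0.76. The fourth, Atp5h, passed in clone 1 (0.24) only with control replicates 1 and 2 and clone 1 replicate 2 all kept, and was 0.17 without control replicate 1. Of the other membrane subunits, Atp5l rose by 0.53 and 0.78, and Atp5mpl, a small proteolipid, fell by 0.36 and 0.28, with 41.2, 43.8 and 45.2 CPM in the control libraries, 36.5, 34.1 and 31.2 in the clone 1 libraries and 36.5, 35.6 and 35.1 in the clone 2 libraries.

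The c subunit is made from 3 genes, Atp5g1, Atp5g2 and Atp5g3, on chromosomes 11, 15 and 2, whose mature proteins are known to be the same. Their coding sequences are not. Over the last 225 coding bases before the stop codon, 57 positions differ among the 3 genes. The first 120 of these bases are shown, with the 29 positions that differ in capitals.
Atp5g1: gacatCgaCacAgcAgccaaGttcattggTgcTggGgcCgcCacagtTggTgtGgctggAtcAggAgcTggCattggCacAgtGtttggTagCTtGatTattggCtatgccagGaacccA
Atp5g2: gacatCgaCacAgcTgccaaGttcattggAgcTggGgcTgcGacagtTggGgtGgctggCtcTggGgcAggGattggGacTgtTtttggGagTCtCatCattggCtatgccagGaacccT
Atp5g3: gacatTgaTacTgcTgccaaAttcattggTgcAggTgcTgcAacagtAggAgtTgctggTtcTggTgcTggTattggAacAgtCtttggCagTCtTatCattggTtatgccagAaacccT
Atp5g1 had 42.4, 46.7 and 49.2 CPM in the control libraries, 69.8, 76.5 and 74.4 in the clone 1 libraries and 78.8, 90.2 and 87.7 in the clone 2 libraries, and Atp5g3 had 330.4, 384 and 379.8 CPM in the control libraries, 267, 291 and 295 in the clone 1 libraries and 388, 386 and 363 in the clone 2 libraries. Atp5g1 rose in both clones (0.67 ± 0.07 and 0.89 ± 0.07), while Atp5g3 fell in clone 1 (-0.36 ± 0.07) and did not pass in clone 2 (0.06). Atp5g2 had 86.5, 101.1 and 99.97 CPM in the control libraries, 111, 116 and 124 in the clone 1 libraries and 104, 109 and 99.2 in the clone 2 libraries; it rose in clone 1 (0.29) and did not pass in clone 2 (0.12).

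Per transcript length, Atp5g1 gave 8.52, 8.10 and 8.58% of the c subunit total in the control libraries, 13.9, 14.2 and 13.4% in the clone 1 libraries and 12.7, 14.2 and 14.7% in the clone 2 libraries. Atp5g3 gave 64.3 ± 0.159% in the control (mean ± SD, n = 3), 51.7 ± 0.417% in clone 1 and 59.6 ± 1.03% in clone 2, and Atp5g2 27.3 ± 0.132%, 34.5 ± 0.751% and 26.5 ± 0.400%. For each gene, both clones lay apart from the control, with an exact permutation p of 0.10, the smallest possible. The total of the 3 genes was 795 ± 64.6 RPKM (CPM divided by transcript length in kilobases) in the control, 770.0 ± 39.9 in clone 1 and 891 ± 29 in clone 2. Atp5g1 and Atp5g2 have near-identical copies (Gm10039, Gm10175) elsewhere in the genome, which the count file does not list.

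Compared directly, clone 2 was the higher clone. Against clone 1, 37 members were higher and 12 lower, or 61.3% of the 80, beside 57.6% of all genes (30.1% higher and 27.5% lower). The median was 0.18, beside 0.00 for all genes. Leaving out clone 2 replicate 2 brought it to 0.12, and leaving out clone 2 replicate 3 brought the lower calls to 7. Sdhd, Sdhc and Uqcrc1 were higher past 1.5-fold, and 0 were lower, beside 15.9% of all genes (8.51% higher and 7.37% lower). Cox7a1 was 0.93 ± 0.35 higher in clone 2 (adjusted p = 0.0408, edgeR), a call lost under 10 of the alternatives, among them leaving out either clone 1 or clone 2 replicate 1.

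Where a member lies in the genome went with how it differed. On chromosome 13, all 6 tested members (Cox7c, Ndufs4, Ndufs6, Sdha, Uqcrb and Uqcrfs1) were lower in clone 2 than in clone 1, by log2 differences of -0.60 to -0.15, and the median of all 550 genes tested on that chromosome was -0.62. The call of Ndufs4 was lost without clone 1 replicate 1 or clone 2 replicate 3. On chromosome 1, all 6, Cox5b, Ndufa10 and Sdhc among them, were higher in clone 2, by 0.49 to 0.83, beside a median of 0.33 for its 811 genes. On chromosome 9, all 5 (Atp5l, Cox5a, Cox7a2, Sdhd and Uqcrc1) were higher, by 0.24 to 0.85, beside 0.33; the call of Atp5l was lost without clone 1 replicate 2 or 3. On chromosome 8, Cox4i1, Ndufa13 and Ndufb7 were lower, by log2 differences of -0.29 to -0.22, beside -0.27, though the calls of Ndufa13 and Ndufb7 were lost without clone 1 replicate 3 and without clone 2 replicate 1 or 3, and that of Ndufb7 also without clone 1 replicate 2 or control replicate 2. These genes belong to different complexes.

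Against the control, all 5 members on chromosome 10 (Atp5b, Atp5d, Ndufa12, Ndufs7 and Uqcr11) were higher in both clones, beside chromosome medians of 0.41 and 0.39, and so were all 3 on chromosome 3 (Atp5pb, Ndufb5 and Ndufc1), beside 0.51 and 0.41. On chromosome 19, 4 of 5 in clone 1 (Cox8a, Ndufb8, Ndufs8 and Ndufv1) and 3 of 5 in clone 2 (the same without Cox8a) were lower, beside -0.45 and -0.46. The clone 1 call of Ndufs8 was lost, for one, without clone 1 replicate 1 (-0.12). From the chromosome median, Ndufv1 lay 0.04 in clone 1 and -0.06 in clone 2, and Ndufb8 lay -0.30 and 0.06. Over the 80 members, the log2 fold change and the median of the other genes of the chromosome had a Spearman rho of 0.62 in clone 1, 0.69 in clone 2 and 0.74 for clone 2 against clone 1 (Pearson r 0.24, 0.40 and 0.77). Members of 1 chromosome share its median, so these are descriptions over 80 genes, not tests. What makes a whole chromosome differ was not tested.

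With the median of its chromosome taken off each member, the spread of the values narrowed, from 0.62 to 0.38 for clone 1, 0.70 to 0.42 for clone 2 and 0.31 to 0.19 for clone 2 against clone 1 (interquartile range, log2). The median of the members was then 0.11, 0.31 and 0.18. For complex V it went from 0.27 to 0.21 in clone 1 and from 0.47 to 0.29 in clone 2, and for complex IV in clone 2 from 0.12 to 0.32. Atp5c1 kept its distance, at 0.91 and 1.18 above the median of chromosome 2, and Ndufa8 lay -0.88 and -0.51 from the same median. Ndufs6 lay -1.24 and -1.19 from that of chromosome 13 in clone 1 and clone 2, but 0.02 in the comparison of the clones. Atp5g1 was 0.65 and 0.90 above that of chromosome 11.

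**Figure D5:**
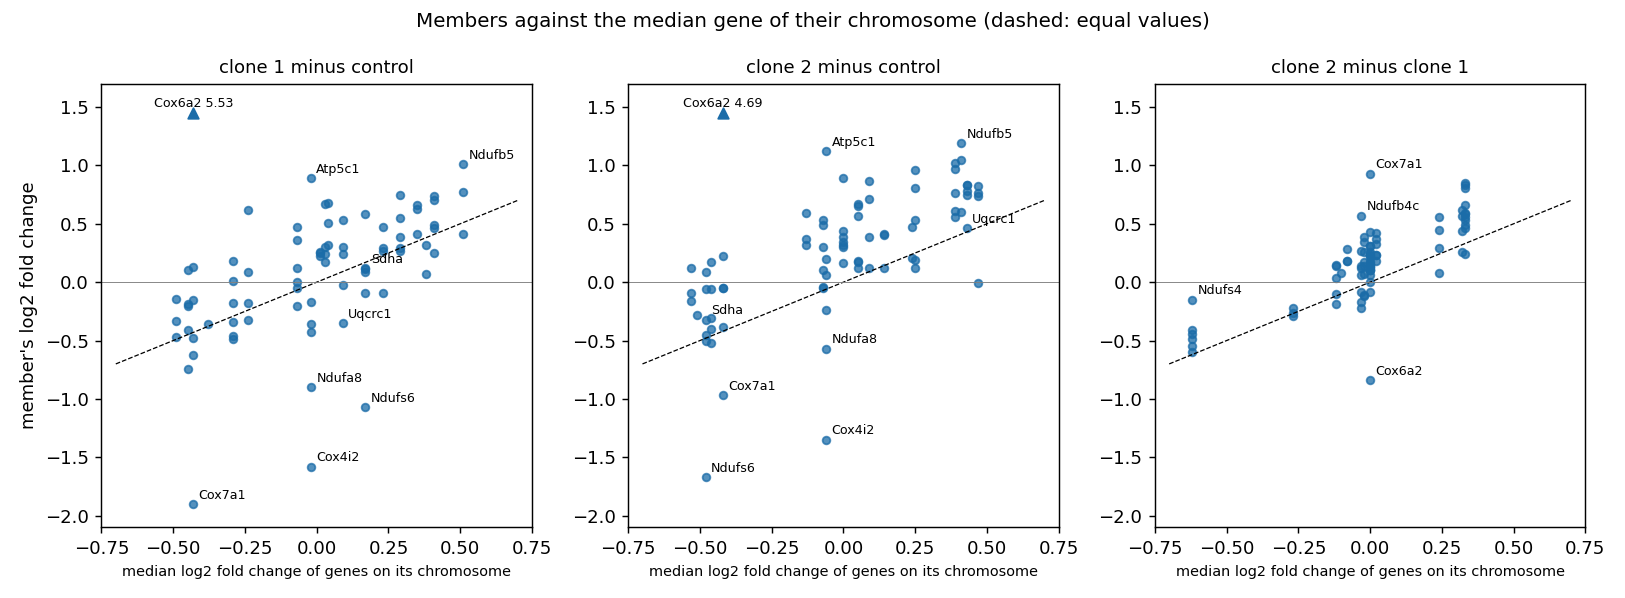
Each point is a tested member, with the median log2 fold change of all tested genes on its chromosome on the horizontal axis and its own log2 fold change on the vertical axis, for the 3 comparisons; the dashed line marks equal values and triangles mark Cox6a2 beyond the axis. Points rise along the line in each panel, most tightly for clone 2 against clone 1, while Atp5c1, Ndufa8 and Ndufs6 lie away from it against the control.

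Of the subunit genes outside the symbol rule, Cyc1, the cytochrome c1 of complex III, rose with 173, 193 and 198 CPM in the control libraries, 237, 254 and 258 in the clone 1 libraries and 315, 326 and 315 in the clone 2 libraries. Its log2 fold changes were 0.41 ± 0.06 and 0.76 ± 0.06 (adjusted p = 5.26e-05 and 2.87e-07, edgeR). Ndufab1, the acyl carrier protein of complex I, fell in clone 1 (-0.28) and did not pass in clone 2 (0.05). Cytochrome c itself, Cycs, did not pass in clone 1 (0.10) and rose by 0.46 in clone 2.

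The genes that help assemble the complexes did not move together, and neither did all genes tested. Of all genes, 37.9% were higher and 38.6% lower in clone 1, and 37.3% and 37.1% in clone 2. Called in either direction were 58.8% and 64.7% of the complex I list and 62.5% and 58.3% of the complex IV list, beside 76.5% and 74.4%. For complex I, 4 of 17 were higher and 6 lower in clone 1, and 7 higher and 4 lower in clone 2. Ecsit, needed for complex I assembly, was at 18.4, 20.9 and 22 CPM in the control libraries, 28.9, 33.9 and 33.7 in the clone 1 libraries and 49.8, 50.2 and 52.1 in the clone 2 libraries and rose by 0.65 and 1.31. Dmac2 fell to log2 fold changes of -1.39 and -1.55. For complex III, 2 of 6 were higher and 4 lower in clone 1, and 4 higher and 2 lower in clone 2. Ttc19 rose (1.25 and 1.48) and Uqcc3 fell (-1.39 and -1.09). For complex IV, 6 of 24 tested were higher and 9 lower in clone 1, and 10 higher and 4 lower in clone 2; Cox16 fell in both (-1.21 and -3.24). For complex II, 0 of 4 were higher and 2 lower in each clone, and for complex V, 1 and 2 of 5 were higher and 0 lower.

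Other respiration factors differed between themselves. Higd1a, a hypoxia-inducible complex IV partner, rose by 0.76 and 1.35, whereas its relative Higd2a fell to -0.39 and -1.31. Chchd10, a small protein of the space between the mitochondrial membranes, had 400 counts in the control, 0 in clone 1 and 2 in clone 2. Of 17 genes of coenzyme Q synthesis and electron carriage, 6 were higher and 9 lower in clone 1, and 8 higher and 4 lower in clone 2; Coq7 rose by 0.50 and 1.29, Pdss1 by 1.01 and 1.02, and Coq8a fell to -1.16 and -1.28. Of 6 ADP/ATP and phosphate carriers and outer membrane channels tested, 3 were higher and 2 lower in clone 1 and 4 higher and 0 lower in clone 2, with the channel Vdac3 at 0.30 and 1.09. Among 14 citric acid cycle genes, 5 were higher and 2 lower in clone 1, and 10 higher and 0 lower in clone 2. Mdh2 had 464, 517 and 531 CPM in the control libraries, 550.1, 593 and 619 in the clone 1 libraries and 809, 858 and 804 in the clone 2 libraries, and Suclg2 rose by 0.22 and 0.94. Of 77 tested mitochondrial ribosomal protein genes, 20 were higher and 41 lower in clone 1 (median -0.19), and 32 higher and 21 lower in clone 2 (median 0.10). That is 26.0% and 53.2% in clone 1, and 41.6% and 27.3% in clone 2. Beside these lists stand all genes tested, with 37.9% higher and 38.6% lower in clone 1 and 37.3% and 37.1% in clone 2.

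Of 17 regulators of mitochondrial genes tested, 8 were higher and 8 lower in clone 1, and 7 and 7 in clone 2; all genes were split about evenly too (37.9% higher and 38.6% lower, and 37.3% and 37.1%). The coactivators Ppargc1a and Ppargc1b, which raise mitochondrial gene expression in many tissues, rose from low levels. Ppargc1b was at 0.477, 0.514 and 0.507 CPM in the control libraries, 8.43, 8.56 and 9.37 in the clone 1 libraries and 10.8, 11 and 11.9 in the clone 2 libraries, and no clone library overlapped the control. Its log2 fold changes were 4.13 ± 0.12 and 4.49 ± 0.12 (adjusted p = 5.73e-11 and 2.88e-11, edgeR), and those of Ppargc1a 1.67 ± 0.14 and 1.54 ± 0.14. The third family member, Pprc1, fell (-0.79 and -0.69). Nrf1, the factor that binds many of these promoters, fell in both (-0.35 each). Esrra, a nuclear receptor partner of the coactivators, fell in clone 1 (-0.86) and did not pass in clone 2 (-0.09), with 0.77 ± 0.08 between the clones. Tfam, which packages mitochondrial DNA, rose by 0.49 and 0.39. Hif1a, the hypoxia factor, rose by 0.57 in clone 1 and did not pass in clone 2 (0.12), and Myc rose by 0.41 and 0.11.

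Promoters of 68 members were found in the RefSeq table (GRCm38.p6; 250 bases before to 50 after the gene start). The palindrome GCGCATGCGC, the binding motif of Nrf1, was present in 5 of 68 (7.35%), beside 1.07% of all 27025 promoters of that length. The ETS motif CCGGAAG, read on both strands, was in 17 of 68 (25%), beside 9.93%. Neither motif holds the other. The 5 windows of 30 bases that hold the palindrome, in capitals, are shown because it is the longer motif, and the promoters of Atp5k and Cox6a1 also hold the ETS motif; a match is a description of letters, not of binding.
Atp5g2 (chr15:102671070-102671099, minus strand): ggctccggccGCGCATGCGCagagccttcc
Atp5k (chr5:108434430-108434459, minus strand): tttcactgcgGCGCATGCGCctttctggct
Cox6a1 (chr5:115349101-115349130, minus strand): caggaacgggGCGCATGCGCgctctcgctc
Ndufa11 (chr17:56717692-56717721, plus strand): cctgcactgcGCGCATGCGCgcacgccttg
Uqcrc1 (chr9:108936668-108936697, plus strand): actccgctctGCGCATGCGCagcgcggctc
In clone 1 the genes that hold it did not share a direction. There, Atp5g2, Atp5k and Cox6a1 rose (0.29, 0.25 and 0.26), Uqcrc1 fell (-0.35) and Ndufa11 did not pass (-0.20). In clone 2, Atp5k, Cox6a1 and Uqcrc1 rose (0.39, 0.32 and 0.46), and Atp5g2 (0.12) and Ndufa11 (-0.04) did not pass.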

How the data were processed

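Polyadenylated RNA was read from 9 libraries with a stranded kit, per the labels' protocols. The authors deposited whole-number counts per Entrez gene, with nothing normalized. The submitters' processing notes name fastp, Subread and DESeq2 and the build mm10 (GRCm38), without versions; for the annotation and the strand setting, not given in the sources used here, no assumption was made. All 24594 genes have an Entrez ID, and 24570 of them were given a symbol from the RefSeq table of GRCm38.p6, which also gave positions and promoters; transcripts and lengths came from GENCODE.

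Counts were scaled by TMM and fitted with the quasi-likelihood test of edgeR 4.0.16 (R 4.3.3, limma 3.58.1) over all 3 groups, without covariates. filterByExpr with a minimum count of 10 left 13928 genes, over which p-values were adjusted (Benjamini-Hochberg, threshold 0.05). A change beyond 1.5-fold was tested with glmTreat. Shares and isoform mixes were compared by exact permutation (scipy 1.17.1), and near-identical copies were sought with BLAST 2.17.0. Intervals of counts are exact at 95% and cover counting error only. The calls were also made on simulated counts for clone 1 against the control (13209 genes). They held 9 of 50 genes set 1.2-fold apart and 43 of 50 set 1.5-fold apart. At 2-fold they held 49 of 50 and at 4-fold 50 of 50. All other genes there were left unchanged, and 15 of the 166 calls were of these. In the data, 76.5% of genes were called in this comparison. How many changes of each size are called at such a share was not tested.

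Alternatives were DESeq2 1.42.0, other scalings, filters and fits, leaving out each library, and taking off the chromosome median. Summing the copies with their parent gene was added after seeing the data. The members and all gene lists were chosen with earlier results of these data known. Every member may be named. Values in each library were given, by rule, for the isoform sets and the copies, the 6 largest rises and falls of each comparison that passed, and the highest and lowest of each complex; of each related list, up to 3 called genes, with a few regulators always. Values of 1 member are not reported here.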

Additional observations from a re-analysis of the deposited data

Results flagged for a closer look

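Against the control they share, 7 of the 80 members tested were called in opposite directions in clone 1 and clone 2. For 2 of these the direct test between the clones also passed 1.5-fold. The others, Ndufa9, Ndufa10, Ndufb3, Ndufs3 and Sdha, each lost a call against the control under some alternatives. How many of all genes tested were called in opposite directions was not counted, so the 7 have no background share beside them. For Uqcrc1, the core protein of complex III, the log2 difference was 0.81 (clone 2 minus clone 1), with clone 1 wholly below and clone 2 wholly above the control. For Sdhc, a membrane anchor of complex II, it was 0.83, and the lower call in clone 1 did not hold without control replicate 2 or 3 or clone 1 replicate 1. With the median of its chromosome taken off, Sdhc lay at 0.11 in clone 1 and 0.60 in clone 2, no longer in opposite directions. Uqcrc1 then lay at -0.43 and 0.04. Groups of 3 libraries were not searched for single outlying libraries.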

How the results depend on the processing

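Of 543 values of the counts and medians under alternative settings, 519 stayed near those reported and 0 turned their direction past a threshold. Near is a loose limit here: within 1.5-fold for a count, and within 1 SD of the library medians for a median. Past 1.5-fold, DESeq2 called 4 members higher in clone 1 and 11 in clone 2, and its share of all genes was not counted. With the chromosome median taken off, the medians were 0.15 for complex III and 0.21 for complex IV in clone 1, and 0.42 for complex II, 0.34 for III, 0.32 for IV and 0.29 for V in clone 2. Between the clones they were 0.45 for complex II and 0.20 for III. With a minimum count of 100, complex IV in clone 2 was 0.21. Leaving out single libraries, the median of complex V in clone 1 ran from 0.18 to 0.33. In clone 2, that of all members ran from 0.19 to 0.38, complex I from 0.19 to 0.33, complex II from 0.21 to 0.31 and complex V from 0.39 to 0.50, each lowest without control replicate 1, and 1 to 2 members were lower past 1.5-fold. Between the clones, that of all members ran from 0.12 to 0.19, complex I from 0.14 to 0.24 and complex III from 0.09 to 0.18, and lower calls from 7 to 13. For 40 named members, 1935 of 2026 values kept their call, 56 lost it (43 of them by leaving out a library) and 35 gained one.

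With the replicate number as a block, 43 members were called higher and 25 lower in clone 1, 54 and 13 in clone 2, and 51 and 16 between the clones. Calls rose over all genes too, to 82.0%, 80.8% and 67.8% in the same order, from 76.5%, 74.4% and 57.6% without the block. Deviations of libraries with the same number correlated at 0.0143 to 0.249 over 9 pairs of libraries, not all above 0.1 but all positive. Replicate 1 libraries correlated with each other at 0.218, 0.249 and 0.214, and negatively with every other number. Other numbers were less distinct: control replicate 2 had 0.0475 with clone 1 replicate 2 and 0.0601 with clone 1 replicate 3. Whether the numbers pair the libraries is not settled by this, and the fit reported here has no block. Over the members alone, the same numbers of clone 1 and clone 2 correlated at 0.818, 0.704 and 0.556, each library best with its own number. Over the members, the same numbers of the control and clone 1 correlated at 0.218, -0.453 and -0.169. Those of the control and clone 2 correlated at 0.0403, -0.56 and -0.22. These member values of the clones are a hint from the data, not the design, and those with the control do not share it. Low values were often even numbers (71.9% from 1 to 20), so the counting intervals of Cox6a2 may be too narrow. With 1 clone and technical replicates per group, neither clones nor cultures can be compared with their own spread.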
